A study of Mus musculus with 12 samples.

Results

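The genes described here encode the junctions that join heart muscle cells end to end at the intercalated disc. They are 9 genes grouped by function under a rule that uses no measured values: the connexins Gja1, Gja5 and Gjc1, the classical cadherin Cdh2, the desmosomal cadherins Dsg2 and Dsc2, and the plaque proteins Dsp, Pkp2 and Jup. Of 20021 gene symbols on the array these 9 carried 13 probes of 39429, and 12 of the 13, covering all 9 genes, passed the filter on dim probes. RNA of C57/Bl6 mouse hearts, from part of the left ventricle, was hybridised in a single colour to 12 Agilent arrays, with 3 arrays in each of 4 groups. The groups were CnAb1 transgenic overexpressing hearts after trans aortic banding (TAC), CnAb1 transgenic overexpressing hearts after a sham operation, wild-type hearts after TAC and wild-type hearts after a sham operation. TAC places a constriction on the aorta and raises the pressure against which the left ventricle pumps, and CnAb1 is a splice form of the calcineurin phosphatase. The protocol puts every heart at 21 days from surgery, although another time label reads 0 for sham hearts. The sources used here do not give the promoter that drives the transgene, the age and sex of the mice or any pooling of animals. Nothing in the labels ties arrays to separate animals, and p-values therefore reflect differences between arrays, which may be technical.

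Gap junctions are clusters of channels, built from connexins, that pass current from one cardiomyocyte to the next. Cadherins span the gap between the cells: N-cadherin in adherens junctions is tied to actin, and the desmosomal cadherins are tied through plakoglobin, plakophilin and desmoplakin to the desmin filaments. In humans, inherited defects of the desmosomal genes cause arrhythmogenic cardiomyopathy, a disease in which muscle cells detach and rhythm is disturbed.

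Values are log2 signals relative to the 75th percentile of each array, and a difference of 1 is a doubling. The percentile itself lay at 9.40 to 9.77 on transgenic TAC arrays and 9.40 to 9.42 on transgenic sham arrays, and at 9.78 to 9.83 on wild-type TAC arrays and 8.89 to 9.16 on wild-type sham arrays. In wild-type hearts it was thus 0.74 higher after TAC on average, and every rise or fall below is relative to it. Transgenic sham array 2 stood apart: its negative controls had a net signal of 48.6 intensity units, against 15.4 to 21.0 on the others, and 37.0% of its probes were well above background, against 60.2% to 78.1%. The 7 cardiomyocyte markers Myh6, Tnnt2, Tnni3, Actc1, Ryr2, Pln and Mb were well above background on all 12 arrays. Of the 5 atrial markers, Myl4 and Nr2f2 were well above background on 12 arrays, Bmp10 on 11, Myl7 on 10 and Sln on 4. Hcn4, a marker of the conduction system, did not pass the filter.

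In wild-type hearts TAC was followed by unequal changes among the junction genes. Gjc1 and Pkp2 were higher after TAC, Dsg2 and Dsc2 were lower, and the other 5 genes did not pass the test. In bulk tissue fewer cells of a type and less RNA per cell cannot be told apart. By limma with Benjamini-Hochberg adjustment over 30346 probes, 5 of the 12 member probes passed, against 20.2% of all probes tested. These were 2 higher probes, where the share of all probes was 9.09%, and 3 lower probes, where it was 11.2%. The median difference was -0.23 over the 12 member probes and -0.09 over all probes. In transgenic hearts 0 of the 12 member probes passed for TAC against sham, as did 0% of all probes. Without adjustment 2 of the 12 member probes had a p under 0.05 there, as did 1916 of all probes (6.31%).

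**Figure D1:**
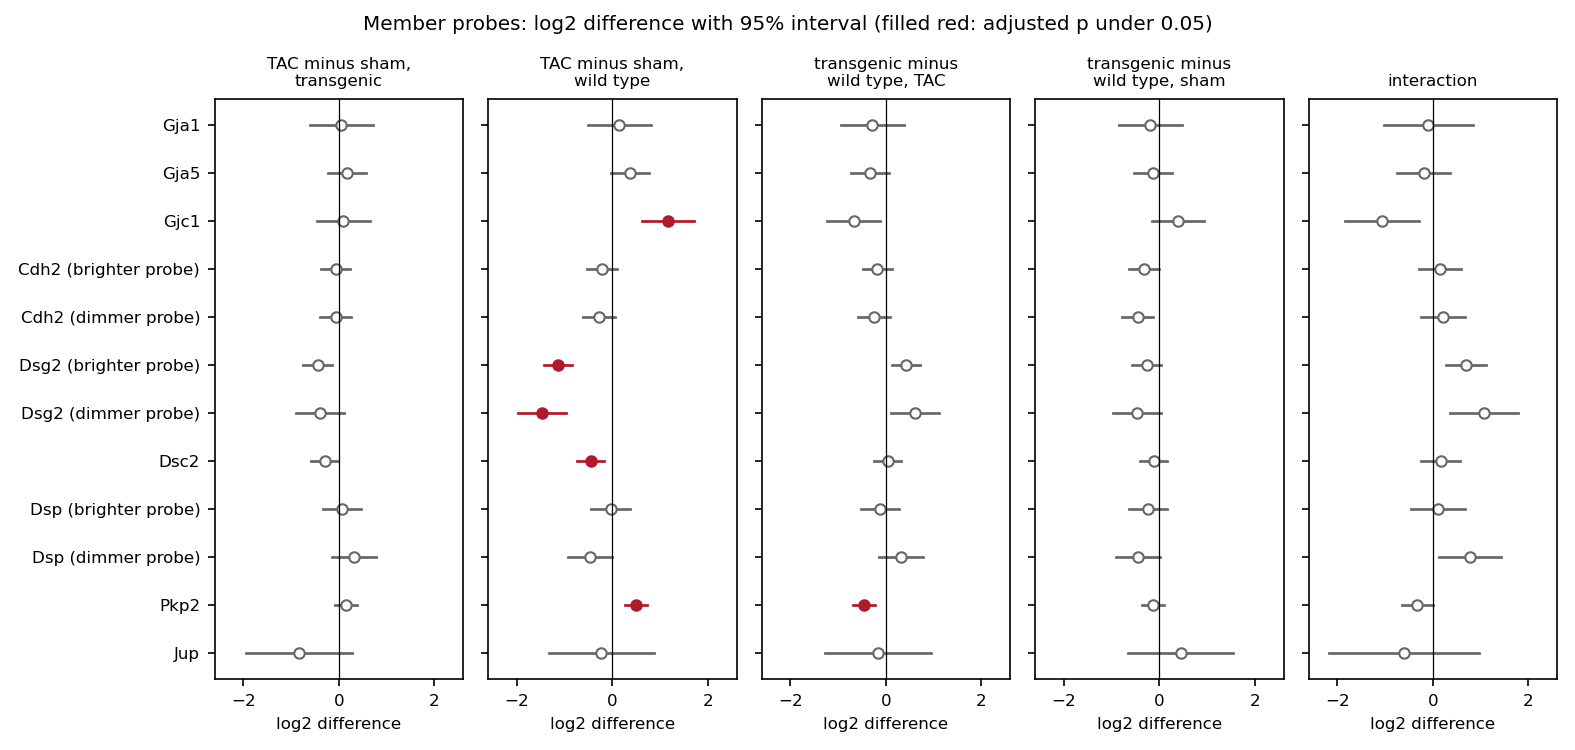
Log2 differences of the 12 member probes (points) with 95% intervals (lines) in 5 comparisons; filled red points passed at an adjusted p under 0.05. The 5 red points of the wild-type TAC column are Gjc1, both Dsg2 probes, Dsc2 and Pkp2, and the only other red point is Pkp2 in transgenic against wild-type TAC hearts.

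Gjc1 encodes Cx45, a connexin of the early heart and of nodal and conduction cells that is scarce in adult working ventricle. Its signal on transgenic TAC arrays 1 to 3 was -0.45, 0.32 and 0.40, against 0.31, -0.0023 and -0.31 on transgenic sham arrays. In wild-type hearts it was 0.58, 0.72 and 1.01 after TAC, against -0.29, -0.29 and -0.61 after sham. The wild-type groups did not overlap, while the transgenic groups did and covered much of the range between them. The wild-type difference was 1.17 ± 0.24 (SE, 3 arrays a group), or 2.25-fold, with an adjusted p of 0.0101. The transgenic difference was 0.09 ± 0.24, with a 95% interval of -0.45 to 0.64 and an adjusted p of 0.939. Within the slide that held both wild-type groups, the TAC array was 1.01 above the mean of the sham arrays. With slide as a fixed block, the wild-type difference was 0.95 ± 0.31 and its adjusted p 0.118.

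Gja1 encodes Cx43, the main connexin of working ventricular muscle. Its probe was printed 10 times on each array, and the spots of an array differed by a standard deviation of only 0.03 to 0.07. The array values were 1.26, 0.71 and 0.33 in transgenic TAC hearts, against 1.26, 0.78 and 0.11 in transgenic sham hearts. In wild-type hearts they were 0.94, 0.95 and 1.27 after TAC, against 0.82, 0.86 and 1.05 after sham. All 4 groups overlapped, and the 12 arrays spread over 1.16 although each was read from 9 or 10 closely matching spots. The group means were 0.77 ± 0.46 in transgenic TAC, 0.72 ± 0.57 in transgenic sham, 1.06 ± 0.19 in wild-type TAC and 0.91 ± 0.12 in wild-type sham hearts (SD, n = 3 each). The difference of TAC from sham was 0.05 ± 0.29 in transgenic hearts (95% interval -0.61 to 0.71) and 0.14 ± 0.29 in wild-type hearts (-0.51 to 0.80). Both intervals extend beyond 0.5 in each direction, so these arrays bound the change of Gja1 only loosely. Without scaling between arrays, a setting added after the data were seen and under which 47.0% of all probes passed, the wild-type difference was 0.88 ± 0.31 and passed (adjusted p = 0.0391).

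**Figure D2:**
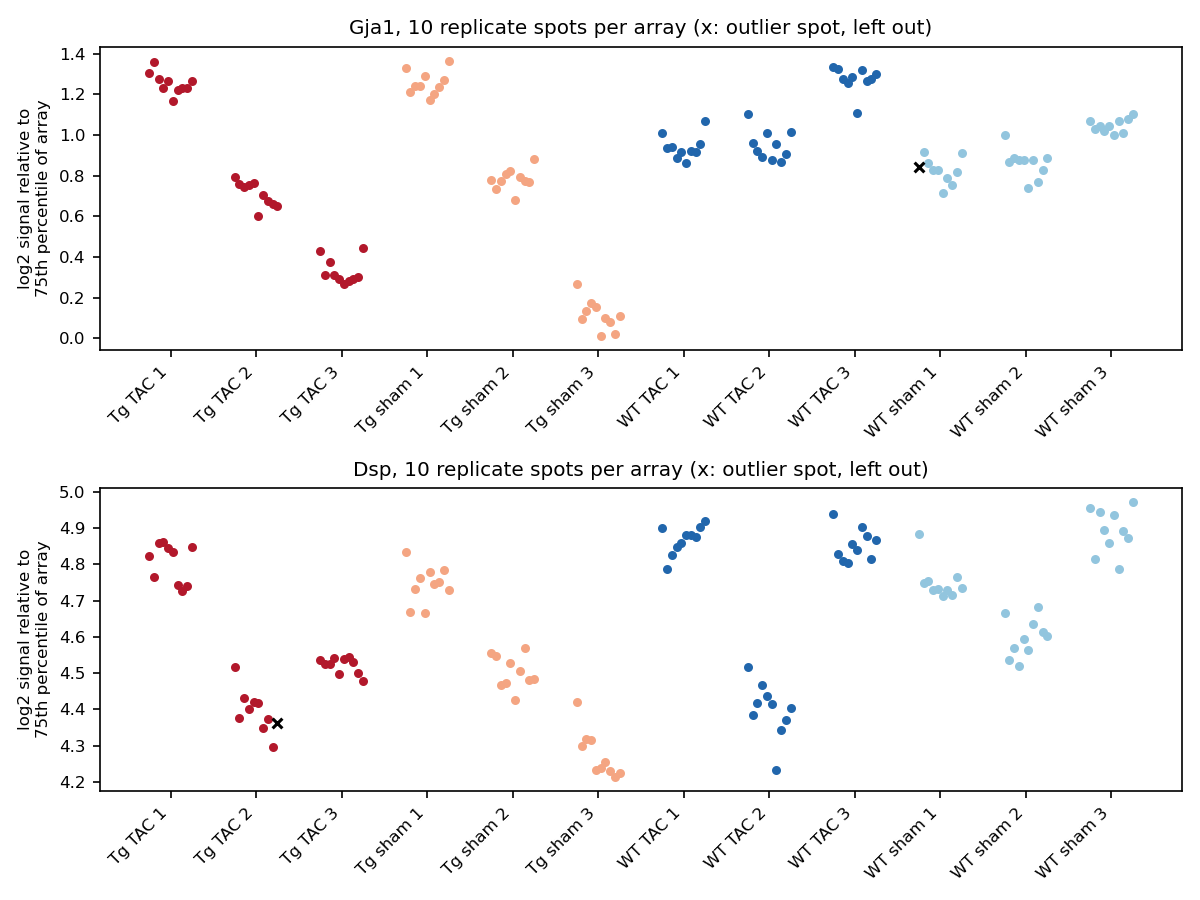
Log2 signal relative to the 75th percentile of the array (vertical axis) for each replicate spot of the Gja1 and Dsp probes on the 12 arrays. Spots of an array lie within about 0.3 of each other, while Gja1 on transgenic arrays ranges from 0.11 to 1.26 between arrays.

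Gja5 encodes Cx40, found in atrial muscle, the conduction system and arterial endothelium. Its brighter probe gave -1.88, -1.85 and -1.79 in transgenic TAC hearts and -1.85, -1.93 and -2.26 in transgenic sham hearts, where array 2 was not well above background. It gave -1.77, -1.37 and -1.39 in wild-type TAC hearts, against -1.71, -1.72 and -2.20 in wild-type sham hearts. The wild-type groups overlapped, and the difference of 0.37 ± 0.17 did not pass (adjusted p = 0.177), while without scaling it was 1.10 ± 0.20 and passed (adjusted p = 0.00195). The other Gja5 probe was well above background on 1 of 12 arrays, wild-type sham 3, and was not tested.

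The starts of Gja1 and Gja5 are shown because T-box factors, NKX2-5 and GATA factors are known regulators of connexin genes, and their own transcripts were measured here. Sequences are RefSeq's for GRCm38.p6, with 250 bases before and 50 after the annotated start, on the plus strand. Capitals mark GGTGT (T-box), AAGTG (NKX2-5), GATAA (GATA) and GGAAA (NFAT, the factors that calcineurin activates), sought on both strands.
Gja1, chr10:56377050-56377349: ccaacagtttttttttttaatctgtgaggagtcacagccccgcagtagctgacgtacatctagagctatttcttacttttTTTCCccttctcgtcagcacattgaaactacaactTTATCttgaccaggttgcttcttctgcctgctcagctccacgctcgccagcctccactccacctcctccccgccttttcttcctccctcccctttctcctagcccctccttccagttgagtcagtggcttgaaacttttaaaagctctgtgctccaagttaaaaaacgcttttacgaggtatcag
Gja5, chr3:97032152-97032451: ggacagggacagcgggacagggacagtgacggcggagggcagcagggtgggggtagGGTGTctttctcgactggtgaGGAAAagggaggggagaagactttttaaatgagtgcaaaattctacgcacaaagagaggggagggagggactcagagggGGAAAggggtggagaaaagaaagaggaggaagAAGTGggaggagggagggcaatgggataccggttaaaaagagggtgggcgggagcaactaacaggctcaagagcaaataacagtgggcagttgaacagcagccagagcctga
The Gja5 window held 1 T-box, 1 NKX2-5 and 2 NFAT matches, and the Gja1 window held 1 GATA and 1 NFAT match, each on the reverse strand; no match overlapped another. Such short runs are common: among 32851 promoters of this length, 41.6% held the T-box letters, 46.4% the NKX2-5 letters, 25.4% the GATA letters and 61.3% the NFAT letters. A match here is a description of the letters and not a binding site. Dsp and Jup also had an entry in the table; Gjc1, Pkp2, Dsg2, Dsc2 and Cdh2 had none.

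Of 14 regulators of connexins and the disc, 1 was lower and 0 were higher in wild-type TAC hearts. Over all probes 11.2% were lower and 9.09% higher. Tbx5, a T-box activator of Gja5 in mice, was lower by this test (-0.65 ± 0.20, adjusted p = 0.0487), and it was higher in transgenic than in wild-type TAC hearts by 1.13 ± 0.20 (adjusted p = 0.0228). Nkx2-5, a homeobox factor of cardiomyocytes, differed by 0.36 ± 0.12 for TAC in transgenic hearts and by -0.32 ± 0.12 in wild-type hearts, and neither passed. The difference between these responses of Nkx2-5 did pass, at 0.68 ± 0.16 (adjusted p = 0.0410). Gata4 did not pass in any of the 5 comparisons.

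Cdh2 encodes N-cadherin, the classical cadherin of the disc. Its brighter probe read 4.77, 4.63 and 4.88 in transgenic TAC hearts, against 4.93, 4.79 and 4.77 in transgenic sham hearts. It read 4.85, 4.75 and 5.22 in wild-type TAC hearts, against 5.16, 5.27 and 5.05 in wild-type sham hearts. Every transgenic sham array lay below every wild-type sham array, on this probe and on the dimmer one. The difference of transgenic from wild-type sham hearts was -0.33 ± 0.14 on the brighter probe and -0.46 ± 0.15 on the dimmer, with adjusted p of 0.267 and 0.160, so neither passed. For TAC in wild-type hearts the 2 probes gave -0.22 ± 0.14 and -0.28 ± 0.15, and neither passed (adjusted p = 0.315 and 0.227). Without scaling both had the opposite sign and passed, at 0.51 ± 0.16 and 0.46 ± 0.15 (adjusted p = 0.0256 and 0.0292).

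Dsg2, the widely expressed desmoglein and the main one of heart muscle, had the largest fall among the members. The brighter probe gave -0.51, -0.64 and -0.50 in transgenic TAC hearts, against 0.07, -0.21 and -0.16 in transgenic sham hearts. In wild-type hearts it gave -1.02, -1.13 and -0.77 after TAC, against 0.15, 0.02 and 0.33 after sham. In each genotype all TAC arrays lay below all sham arrays, and the transgenic TAC arrays lay above every wild-type TAC array. The wild-type difference was -1.14 ± 0.13, a level 0.455 of that in sham hearts, with an adjusted p of 0.0013. In transgenic hearts it was -0.45 ± 0.13, and the adjusted p was 0.786.

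The dimmer Dsg2 probe had the same order of groups. It gave -3.68, -4.17 and -4.06 in transgenic TAC hearts, against -3.53, -4.03 and -3.14 in transgenic sham hearts, where array 2 was not well above background. In wild-type hearts it gave -4.53, -4.80 and -4.42 after TAC, against -3.04, -3.29 and -2.99 after sham, and these groups did not overlap. The wild-type difference was -1.48 ± 0.23 (adjusted p = 0.0030) and the transgenic one -0.40 ± 0.23 (adjusted p = 0.801). Both probes passed for wild-type hearts with slide as a fixed block, at -1.23 ± 0.15 and -1.68 ± 0.22 (adjusted p = 0.04625 for each).

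The fall of Dsg2 rests in part on the scaling. Before scaling, the brighter probe had processed signals of 434, 403 and 536 in wild-type TAC hearts, against 635, 482 and 704 in wild-type sham hearts. These ranges overlap at the TAC array of 536 and the sham array of 482. Fitted without scaling between arrays, the difference of the brighter probe was -0.40 ± 0.19 (adjusted p = 0.0956). The dimmer probe had processed signals of 38, 32 and 43 in wild-type TAC hearts, against 70, 49 and 71 in wild-type sham hearts. Its ranges did not overlap, and it passed without scaling. Gjc1 and Pkp2 were higher under both scales, at 1.90 ± 0.28 and 1.22 ± 0.19 without scaling.

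Dsc2 encodes the heart's desmocollin, the partner of Dsg2 in the same junction. It gave -0.56, -0.58 and -0.59 in transgenic TAC hearts, against -0.05, -0.25 and -0.54 in transgenic sham hearts. It gave -0.69, -0.64 and -0.52 in wild-type TAC hearts, against -0.10, -0.25 and -0.14 in wild-type sham hearts. The groups did not overlap in either genotype, though transgenic sham array 3 lay beside the TAC arrays. The wild-type difference was -0.46 ± 0.13 (adjusted p = 0.0317) and the transgenic one -0.29 ± 0.13 (adjusted p = 0.786). The wild-type call was lost when any of the 6 wild-type arrays was left out, with adjusted p of 0.0574 to 0.107, and with slide as a fixed block (-0.51 ± 0.14, adjusted p = 0.0860). Without scaling the difference was 0.28 ± 0.18, of the opposite sign.

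Dsg2 and Dsc2 lie in a row of 9 desmosomal cadherin genes on mouse chromosome 18, in the order Dsc3, Dsc2, Dsc1, Dsg1c, Dsg1a, Dsg1b, Dsg4, Dsg3, Dsg2. Dsc2 and Dsg2, near the ends of the row, each had a probe well above background on all 12 arrays. Between them Dsg1c was above background on 11 arrays and Dsg3 on at most 6, and Dsc1 and Dsg4 on 0. Dsg1c was also lower in wild-type TAC hearts, by -1.62 ± 0.34 (adjusted p = 0.0107).

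**Figure D3:**
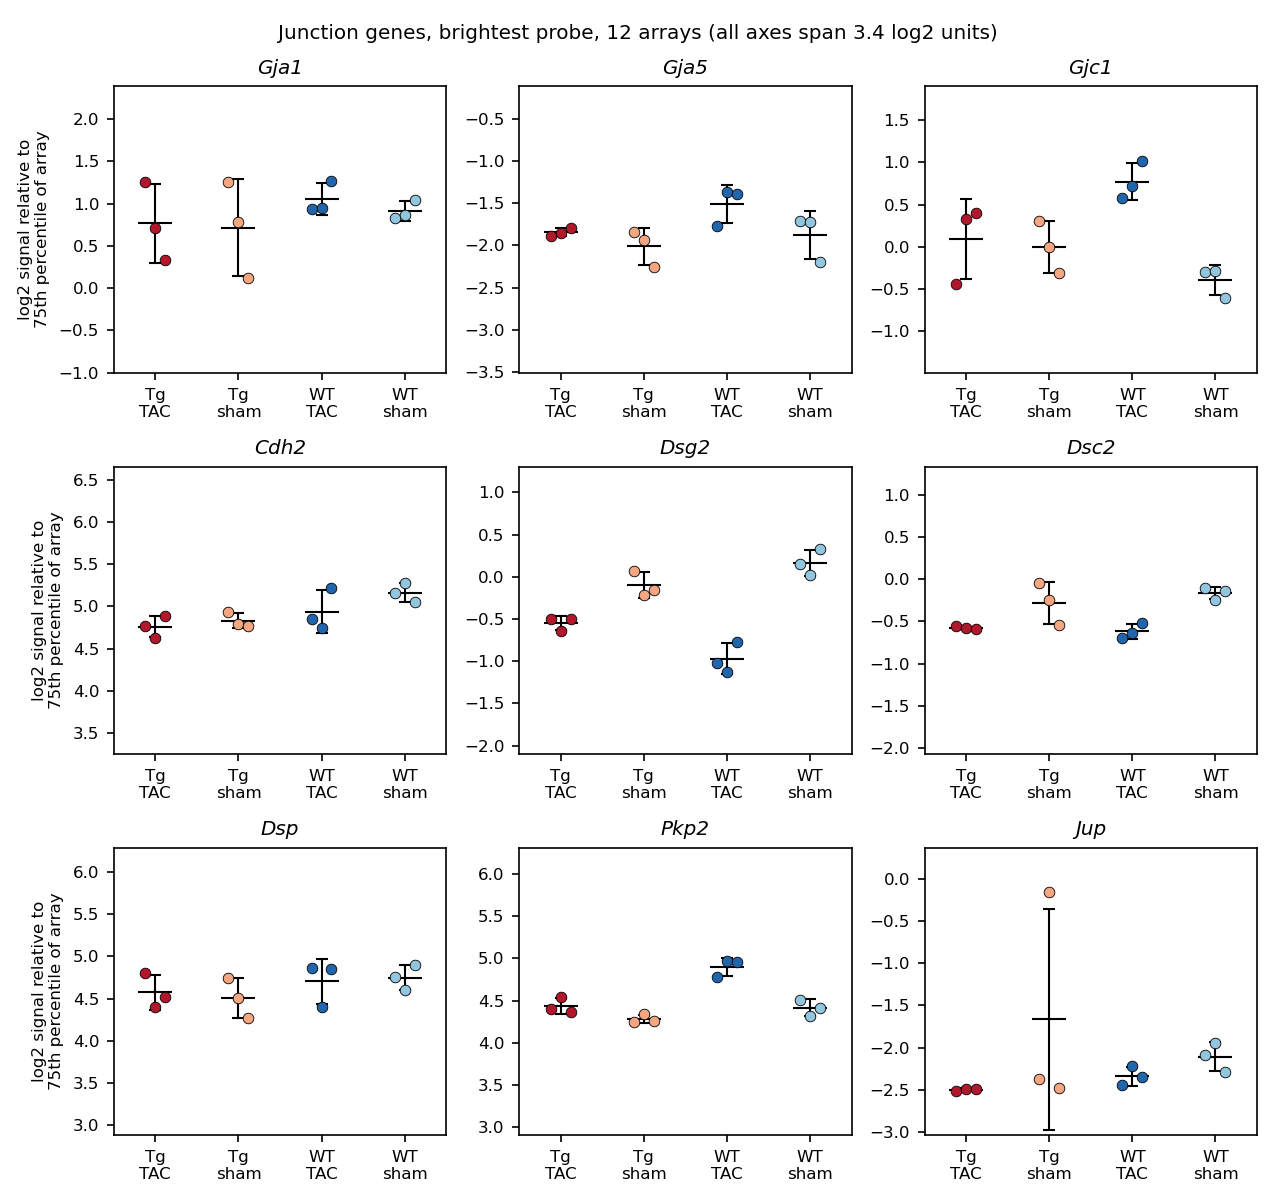
Log2 signal relative to the 75th percentile of the array (vertical axes, all of equal span) for the brightest probe of each of the 9 genes; points are arrays, horizontal lines group means, bars 1 SD, 3 arrays a group. Wild-type TAC arrays lie apart from wild-type sham arrays for Gjc1, Dsg2, Dsc2 and Pkp2, and 1 transgenic sham array stands apart for Jup.

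Among the plaque proteins, Pkp2, plakophilin of the cardiac desmosome, was higher after TAC in wild-type hearts. It gave 4.40, 4.55 and 4.37 in transgenic TAC hearts, against 4.25, 4.34 and 4.25 in transgenic sham hearts. It gave 4.78, 4.97 and 4.96 in wild-type TAC hearts, against 4.51, 4.31 and 4.42 in wild-type sham hearts. TAC and sham arrays did not overlap in either genotype, and the wild-type TAC arrays were above all 9 others. The wild-type difference was 0.49 ± 0.10, or 1.40-fold (adjusted p = 0.0106), and the transgenic one 0.15 ± 0.10 (95% interval -0.08 to 0.38, adjusted p = 0.802). With slide as a fixed block the wild-type value was 0.55 ± 0.15 and its adjusted p 0.0859.

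Pkp2 was also the only member to pass between genotypes after TAC, where 1 of 12 member probes passed against 3.86% of all probes, or 2.06% counting lower ones alone. It was lower in transgenic than in wild-type TAC hearts by -0.46 ± 0.10 (adjusted p = 0.0416). The call was lost when any of the 6 TAC arrays or the 3 wild-type sham arrays was left out, with adjusted p of 0.0589 to 0.151. On the slide that held both groups, the transgenic TAC array was 0.50 below the mean of 2 wild-type TAC arrays. The value with slide as a fixed block was -0.50 ± 0.16 (adjusted p = 0.323).

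Dsp, desmoplakin, which ties the desmosome to desmin, did not pass in any of the 5 comparisons with scaling between arrays, although its brighter probe was printed 10 times an array with a spot standard deviation of 0.02 to 0.08. The brighter probe gave 4.80, 4.40 and 4.52 in transgenic TAC hearts, against 4.74, 4.50 and 4.28 in transgenic sham hearts. It gave 4.87, 4.40 and 4.85 in wild-type TAC hearts, against 4.75, 4.60 and 4.89 in wild-type sham hearts. The groups overlapped, and the differences of TAC from sham were 0.07 ± 0.18 in transgenic hearts (95% interval -0.33 to 0.47) and -0.04 ± 0.18 in wild-type hearts (-0.44 to 0.36). Without scaling the wild-type difference was 0.70 ± 0.21 and passed (adjusted p = 0.0197). The dimmer Dsp probe gave -0.75, -1.19 and -0.76 in wild-type TAC hearts, all below the -0.53, -0.34 and -0.42 of wild-type sham hearts. Its difference of -0.47 ± 0.21 did not pass (adjusted p = 0.143), so with scaling the probes of this gene differed in whether their groups overlapped.

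Jup encodes plakoglobin, which binds the cadherin tails. Its single probe gave -2.52, -2.49 and -2.48 in transgenic TAC hearts, against -2.37, -0.15 and -2.47 in transgenic sham hearts. It gave -2.44, -2.22 and -2.35 in wild-type TAC hearts, against -2.08, -1.95 and -2.29 in wild-type sham hearts. A single value, on transgenic sham array 2, the array with the raised negative controls, lay over 1.8 above every other. The difference of TAC from sham in transgenic hearts was -0.83 ± 0.50 with that array and -0.07 ± 0.13 without it, and neither passed. The difference of transgenic from wild-type sham hearts likewise was 0.44 ± 0.50 with it and -0.32 ± 0.13 without it (adjusted p = 0.685 and 0.328).

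The responses of the 2 genotypes were then set against each other by the interaction, the TAC difference in transgenic hearts minus that in wild-type hearts. No member probe passed (0 of 12, against 6.71% of all probes, 3.57% higher and 3.13% lower), and 5 had an unadjusted p under 0.05, as did 24.7% of all probes. The interaction was 0.69 ± 0.19 for the brighter Dsg2 probe (adjusted p = 0.0590), 1.08 ± 0.32 for the dimmer (0.0719), -1.07 ± 0.35 for Gjc1 (0.0911), 0.78 ± 0.29 for the dimmer Dsp probe (0.136) and -0.33 ± 0.15 for Pkp2 (0.195). A member gene that passed in wild-type hearts alone was therefore not shown to respond differently in transgenic hearts. The brighter Dsg2 probe passed in 5 of 26 alternative settings, 1 of them with transgenic sham array 1 left out (0.78, adjusted p = 0.0484). The dimmer passed in 2 of 24, 1 of them with transgenic sham array 3 left out (1.29, adjusted p = 0.0333), and Gjc1 passed in 3 of 26.

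Between genotypes in sham hearts 0 of 12 member probes passed, against 1.25% of all probes (0.669% higher and 0.58% lower), and 2, both of them Cdh2, had an unadjusted p under 0.05, as did 17.2% of all probes. Groups did not overlap for 3 of 12 member probes there, against 22.3% of all probes. In the other comparisons the count was 4 of 12 against 8.73% for TAC in transgenic hearts, 6 of 12 against 45.9% for TAC in wild-type hearts, and 6 of 12 against 32.5% for genotype in TAC hearts. The 4 probes of the transgenic TAC comparison were the brighter Dsg2 probe, Dsc2, Pkp2 and Jup. All but Dsg2 were only narrowly apart. The nearest TAC and sham arrays read -0.5603 and -0.5434 for Dsc2, 4.3653 and 4.3441 for Pkp2, and -2.4839 and -2.4719 for Jup. The comparisons share groups of arrays, so these counts are not independent of each other.

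The wider set of junction genes was read from 5 lists, with directions relative to the 75th percentile as before. Without scaling, in wild-type TAC hearts 4 other connexins and pannexins were higher and 0 lower, 2 other desmosome genes higher and 2 lower, 13 adherens junction genes higher and 0 lower, 10 scaffolds higher and 1 lower, and 7 regulators higher and 0 lower. Over all probes without scaling, 14052 of 30346 were higher in wild-type TAC hearts and 198 lower. The counts below are those with scaling, where 9.09% of all probes were higher in wild-type TAC hearts and 11.2% lower. Of 20 other connexins and pannexins 12 passed the filter, and in wild-type TAC hearts 2 were higher and 0 lower, with a median of 0.03 against -0.09 over all probes. Panx1, a channel protein related to connexins in topology, was higher by 2.55 ± 0.26 (adjusted p = 0.000715), and Gja4, a connexin of arterial endothelium, by 0.48 ± 0.13 (0.0296). For Panx1 the difference was 0.44 ± 0.26 in transgenic hearts, which did not pass, and the interaction was -2.11 ± 0.36 and passed (adjusted p = 0.0187). Gja4 is among the arterial endothelial markers too, of which 2 of 5 were higher, and whose mean per array was 0.18 to 0.67 in wild-type TAC hearts, against -0.19 to 0.25 in wild-type sham hearts. Panx1 was also lower in transgenic than in wild-type TAC hearts, by -1.34 ± 0.26.

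Of 14 other desmosome genes 9 passed the filter, and 3 were lower and 1 higher in wild-type TAC hearts, with a median of -0.25. Those lower were Ppl, periplakin, at -1.88 ± 0.24, Dsg1c at -1.62 ± 0.34 and Pkp3, a plakophilin best known from epithelia, at -0.91 ± 0.19. The higher one was Des, desmin, at 0.49 ± 0.10, close to the value of Pkp2. Mesothelial markers, which include epithelial genes, had a mean of -1.60 to -0.96 per wild-type TAC array relative to the wild-type sham mean, against -0.29 to 0.49 in wild-type sham hearts. Their mean was -2.0187 to -0.2975 in transgenic sham hearts and -1.3461 to -0.3743 in transgenic TAC hearts, so low values were not confined to hearts after TAC. Of these 6 markers 4 were tested: in wild-type TAC hearts Msln was lower, at -2.03 ± 0.40, and the others did not pass. Krt19 differed by -1.32 and Upk3b by -2.53, but they were well above background on only 9 and 3 arrays. Wt1, well above background on 12 arrays, went the other way, at 0.81 ± 0.31. Upk1b and Krt8 did not pass the filter, and the part of these markers in the result was not tested. In transgenic against wild-type TAC hearts Ppl and Pkp3 were higher, by 1.11 ± 0.24 and 0.83 ± 0.19, and Des was lower, by -0.48 ± 0.10.

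Of 15 adherens junction genes and actin linkers 14 passed the filter, and 5 were higher and 1 lower in wild-type TAC hearts, with a median of 0.37. The higher ones were Cdh11, a cadherin of mesenchymal cells, at 2.33 ± 0.64, Xirp2, an actin-binding protein of the disc, at 1.76 ± 0.26, Lpp at 1.14 ± 0.16, Cdh5, the endothelial cadherin, at 0.87 ± 0.14, and Ctnnd1, the p120 catenin, at 0.51 ± 0.16. The lower one was Ctnna3, the alpha-T catenin of cardiomyocytes, at -0.49 ± 0.14. Cdh5 is also among the 6 endothelial markers, of which 2 were higher and 1 lower, and whose mean was 0.27 to 0.45 in wild-type TAC hearts, against -0.23 to 0.14 in wild-type sham hearts. Of these, Lpp had an interaction of -1.12 ± 0.23 that passed (adjusted p = 0.0280).

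All 15 scaffolds and membrane partners of the disc passed the filter, and 4 were higher and 4 lower in wild-type TAC hearts, with a median of -0.03. Among the lower ones were the inward rectifier Kcnj2 at -1.19 ± 0.12, Tmem65 at -0.75 ± 0.16 and the scaffold Dlg1 at -0.58 ± 0.14. Among the higher ones were Sorbs2 at 0.98 ± 0.17, Tmem43 at 0.53 ± 0.12 and Tjp1, the ZO-1 scaffold that binds Cx43, at 0.44 ± 0.13. Kcnj2 had an interaction of 1.29 ± 0.17 (adjusted p = 0.0132) and was the only gene of the 5 lists to pass between genotypes in sham hearts, at -0.61 ± 0.12 (adjusted p = 0.0489). In transgenic hearts 0 genes of the 5 lists passed for TAC against sham.

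**Figure D4:**
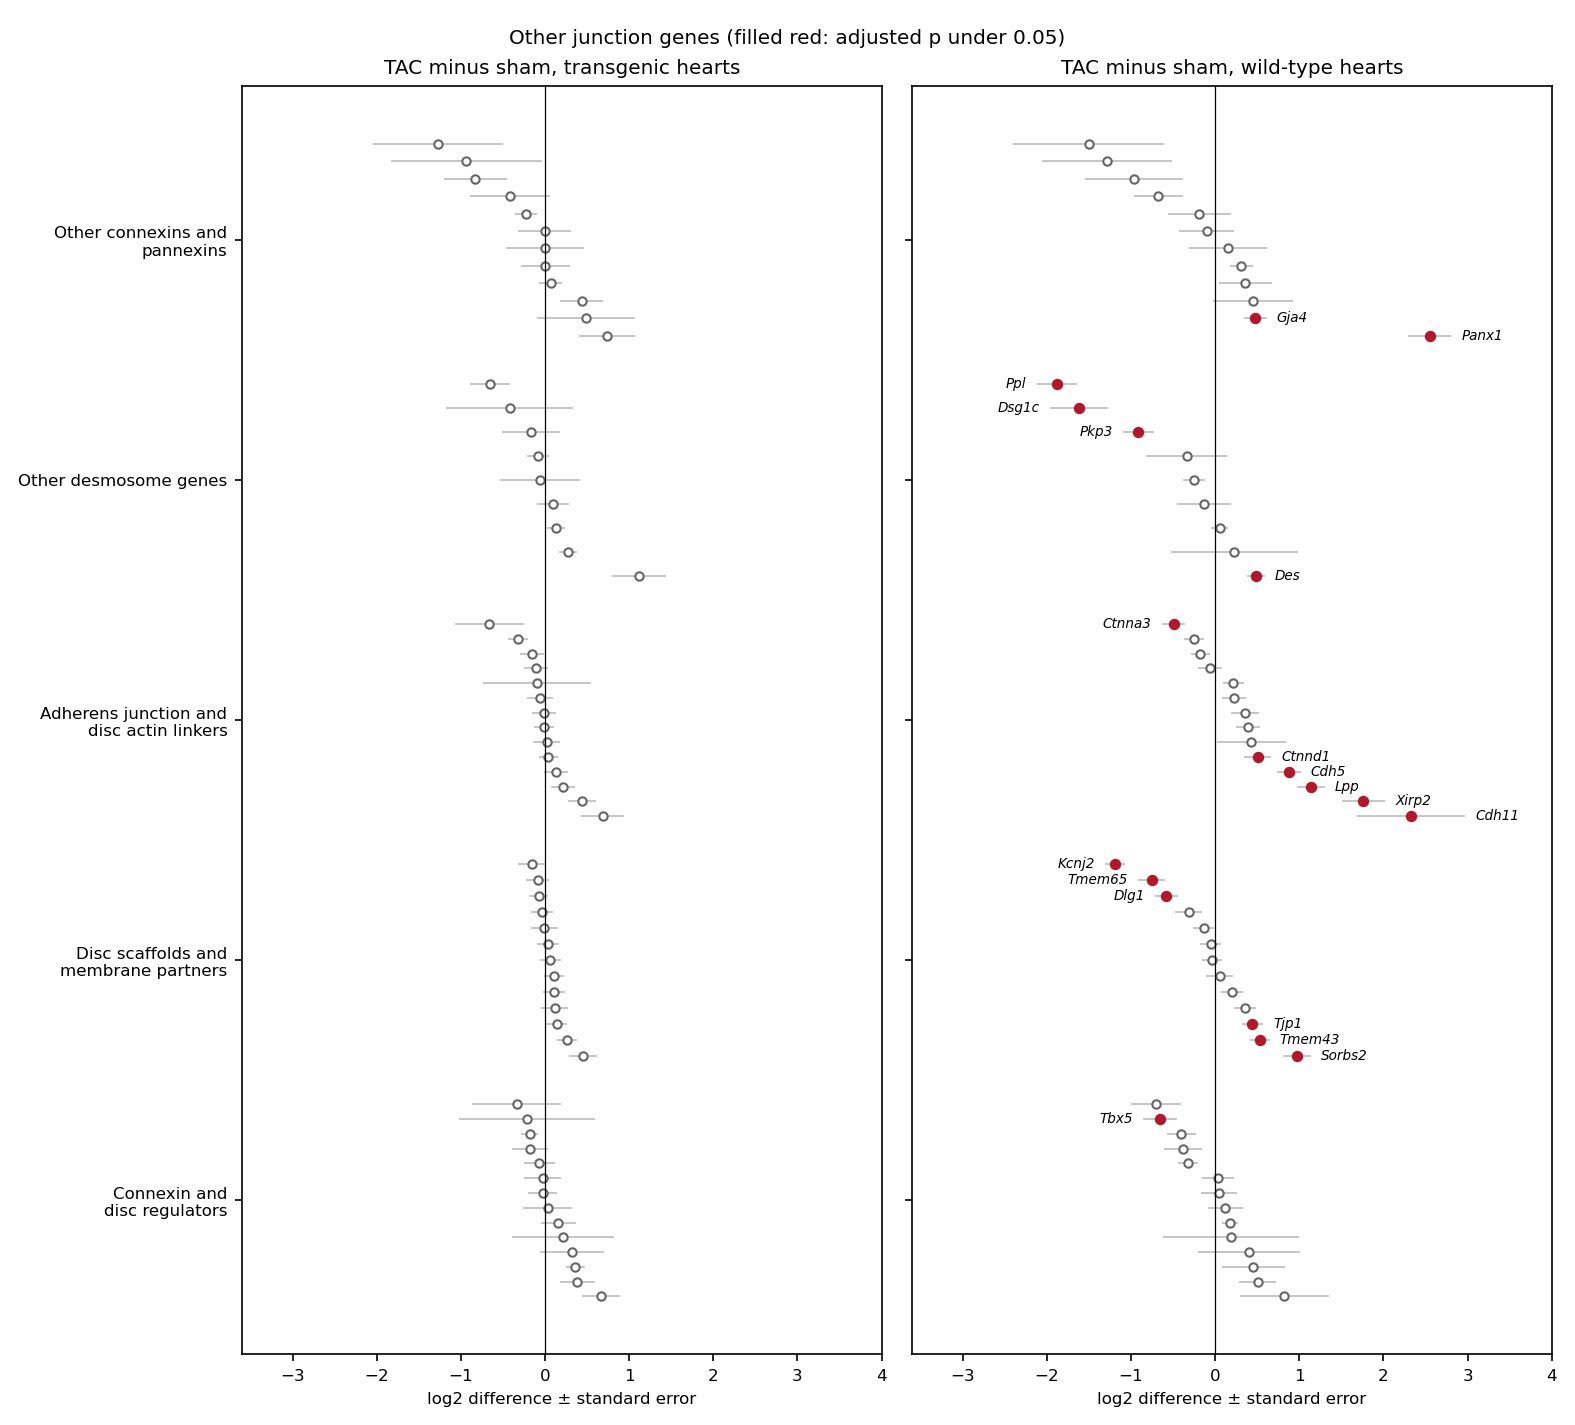
Log2 difference (points) and standard error (lines) of tested genes of the 5 junction lists, for TAC minus sham in transgenic hearts (left) and wild-type hearts (right); filled red points passed at an adjusted p under 0.05 and carry the gene's name. In wild-type hearts the red points run from Ppl at -1.88 to Panx1 at 2.55, and in transgenic hearts there are 0.

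Markers of several cell types also differed between the wild-type groups. Of 7 cardiomyocyte markers 6 were lower in wild-type TAC hearts, and their mean per array relative to wild-type sham hearts was -0.70 to -0.63, against -0.01 to 0.03 in wild-type sham hearts. It was -0.55 to -0.35 in transgenic TAC hearts, against -0.45 to -0.32 in transgenic sham hearts. Of 6 fibroblast markers 5 were higher in wild-type TAC hearts, where their mean was 2.14 to 2.52, against -0.22 to 0.32 in wild-type sham hearts. It was 0.76 to 1.27 in transgenic TAC hearts, against 0.61 to 0.80 in transgenic sham hearts. Of 5 smooth muscle and pericyte markers 2 were higher in wild-type TAC hearts, Pdgfrb at 1.22 and Cnn1 at 1.88. Their mean was 0.53 to 1.08 there, against -0.16 to 0.20 in wild-type sham hearts. Of 4 macrophage markers tested 1 was higher in wild-type TAC hearts, where their mean was 0.47 to 0.65, against -0.18 to 0.31 in wild-type sham hearts. The brighter Dsg2 probe fell by more than the cardiomyocyte mean, and Pkp2 rose while that mean was lower. Gjc1, at 1.17, rose by less than the fibroblast mean, but the 6 fibroblast markers were far apart. Tcf21 (0.68) and Dcn (0.87) rose by less than Gjc1, Pdgfra by 1.19, and Postn by as much as 5.44. The part of these markers in the junction results was not tested.

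The genes whose profile over the 12 arrays was nearest to each member, each relative to its own wild-type sham mean, were found among 9149 named genes by the root mean square difference. Nearest to Gjc1 were Vim, an intermediate filament gene of mesenchymal cells, at 0.14, Tgfbr2 at 0.14 and Cd9 at 0.15, where the median gene was at 0.79. Nearest to Pkp2 were Nxn, Arhgef7 and Des, at 0.10 to 0.11 with a median of 0.39, and Des is the filament gene that the desmosome anchors. Among the nearest to Dsg2 were Slc27a1 at 0.18 and Sh3kbp1 at 0.20, with a median of 0.68. Nearest to Dsc2 was Fig4 at 0.07, to Gja1 Man1c1 at 0.14, to Cdh2 Tubb2a-ps2 at 0.09, to Dsp Rnf13 at 0.12 and to Jup Sgsm3 at 0.14. These are descriptions over arrays that share groups and slides. Gja5 had no probe above background on all 12 arrays and was left out.

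**Figure D5:**
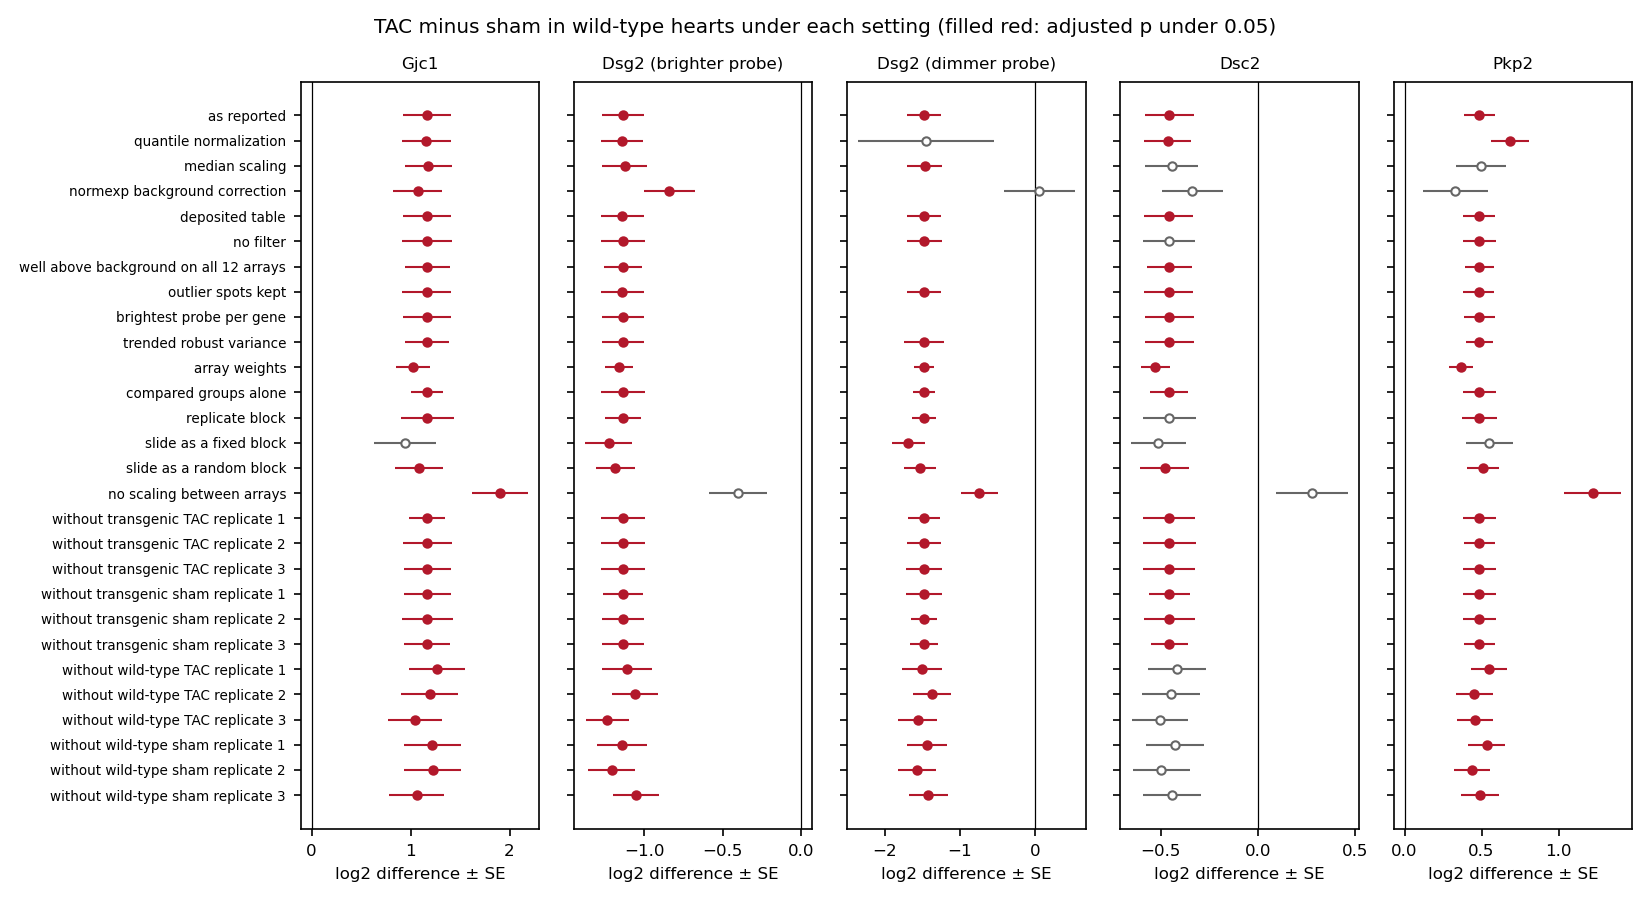
Log2 difference and standard error for TAC minus sham in wild-type hearts under the reported setting and each alternative (rows) for the 5 member probes that passed; filled red points passed at an adjusted p under 0.05. Gjc1 and the brighter Dsg2 probe are red in 26 of 27 alternatives, Pkp2 in 24, Dsc2 in 15, and the dimmer Dsg2 probe in 23 of 25.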

How the data were processed

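Per the file headers, each deposited array file gives processed intensity per spot (Feature Extraction 10.7.3.1) with background subtracted and no scaling between arrays. The deposited value table is in log2 units, centred on each probe's median, and served as an alternative. The submitters' processing notes name RMA; the sources used here do not say for what. Of 43020 non-control spots, outlier spots were left out, replicate spots averaged, and each array's 75th percentile subtracted after taking log2. Names came from transcript identifiers and a GRCm38.p6 gene table (26424 of 39429 probes); the array annotation is mm9, so no positions were taken from it, and the promoter windows and the gene order are those of GRCm38.p6. Probes that at least 3 of the 12 arrays put well above background were tested with limma 3.58.1 in R 4.3.3, with a mean per group, 8 residual and 1.80 prior degrees of freedom and a median residual SD of 0.28; the number of arrays limits the precision. Two-sided p-values were adjusted by Benjamini-Hochberg over 30346 probes, with a threshold of 0.05. On simulated data for wild-type TAC against sham on 30346 probes, 75% of 100 probes moved by 1 and 97% of 100 moved by 2 (log2) were recovered. The simulated comparison also gave 11 false calls. The text names the 9 members, every probe, all passing genes of 5 junction lists with a few others of smallest p, and the nearest profiles; Gata4 was chosen after its values were seen, and a few genes that the rule names are left out of this text. Members and lists were chosen with earlier results of these data known. Arrays lay on 5 slides. 0 array pairs were identical. Alternatives covered scaling, normexp background correction of median spot signals, the deposited table, filters, outlier spots, the brightest probe, variance models, array weights, the compared groups alone, slide and replicate blocks and each array left out.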

Additional observations from a re-analysis of the deposited data

How the results depend on the processing

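For TAC in wild-type hearts 5 member probes passed as reported; the count was 3 with median scaling (14.1% of all probes), 2 with normexp background correction (4.69%), 2 with slide as a fixed block (1.00%) and 4 to 5 with each array left out. It was 8 with no scaling between arrays (47.0%), the setting added after the data were seen: Gjc1, Pkp2 and the dimmer Dsg2 probe again, with Gja1, Gja5, the brighter Dsp probe and both Cdh2 probes. Without scaling 6 probes changed sign, because the percentile subtracted differs by 0.74 between the groups: Dsc2 (0.28), the brighter and dimmer Cdh2 probes (0.51 and 0.46), the brighter and dimmer Dsp probes (0.70 and 0.26) and Jup (0.51). The dimmer Dsg2 probe read 0.0545 under normexp, and the cause was not tested; the median of all probes was -0.09 as reported, 0.28 under normexp and 0.64 without scaling. For transgenic against wild-type TAC hearts the count of 1 became 3 with array weights (13.5% of all probes) and 2 with the filter on all 12 arrays (19.7%), against 3.86% as reported. It became 0 with median scaling, normexp, no filter, the compared groups alone, slide as a fixed block and the replicate block, and was 0 to 1 with each array left out. For the interaction the count of 0 became 2 with the filter on all 12 arrays (25.4% of all probes), trended robust variance (11.3%), array weights (9.40%) or no scaling (15.8%), 1 with slide as a random block (6.45%), and 0 to 1 with each array left out. For TAC in transgenic hearts and genotype in sham hearts the count was 0 under every alternative run. Of 1583 values of single member probes under alternatives, 1528 stayed on their side of the threshold, and of 670 counts over the 5 junction lists 479 stayed within 1.5 times. Most of the 1583 values belong to results that did not pass as reported. Calls that passed were less stable: Dsc2 for TAC in wild-type hearts passed in 15 of 27 alternatives, against 26 of 27 for Gjc1. Pkp2 for genotype in TAC hearts passed in 12 of 27.

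Replicate numbers shared only a name: deviations of same-numbered arrays correlated at -0.38 to 0.22 over 18 pairs, 4 of them over 0.1. With the replicate block 4 member probes passed for TAC in wild-type hearts, Dsc2 having an adjusted p of 0.0568, and 0 for genotype in TAC hearts. Dim probes such as the second of Gja5 were limited by signal over background, and groups of 3 arrays limit what any comparison can show.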
